A study of Mus musculus with 30 samples.

Results

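Young L1 intervals, as the term is used here, are short stretches of the mouse genome that the deposited repeat table labels with certain L1 names. Young is only the name of this set: its intervals carry no age in that table. They were chosen by their label alone: of the 205758 intervals of the table, 154327 carried a repeat name, 17137 of these were of class LINE, and 10411 of those had a name starting with L1Md, L1_Mus or L1_Mur. The 10411 intervals fell under 13 names and were mostly 24 bases long (10280 of 10411). Intervals of 1 name share a label, though not always their sequence, and are not independent replicates. The libraries came from primary dorsal root ganglion (DRG) cultures of C57/Bl6 wild-type mice, in which neurons had been enriched. DN cultures received A-Fos, an engineered dominant negative that pairs with Jun and stops AP-1 from binding DNA, from a PHP.S adeno-associated virus, a capsid that favours sensory neurons. GFP cultures received the same kind of vector with GFP, and Untransduced cultures received none; the age of the mice is not given in the sources used here. Each condition had 10 libraries, and every mouse gave 1 culture to each condition. By their titles the replicates formed 3 sets: plain titles (1 to 3), titles naming 7 days in vitro, or 7DIV (4 to 6), and titles with a date (7 to 10), here called the plain, 7DIV and dated sets.

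L1 elements are retrotransposons that copy themselves through an RNA intermediate. A full-length copy holds an internal promoter and 2 open reading frames, one for an RNA-binding protein and one for an endonuclease and reverse transcriptase, but most copies are truncated at their start and lie in introns and between genes. L1Md_A, L1Md_T and L1Md_Gf are the names under which the copies still active in the mouse are found, while the L1Md_F, L1_Mus and L1_Mur names hold mostly older copies. The L1 machinery also copies messenger RNAs into the genome, which is how processed pseudogenes, intronless copies of a gene, arise. In a polyadenylated or total RNA library, reads over an L1 copy can come from a transcript of the element or from any longer transcript that runs through it.

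The letters of an interval could be read only where it lay inside an annotated exon (146 of 10411 intervals, GENCODE M21 transcripts, GRCm38 build). The first sequence is the interval with the most reads of all, at chrX:79195318-79195344, followed by the stretch of the Rps24 messenger RNA most like it. The next pair are 2 intervals in another pseudogene, at chr10:26108204-26108227 and chr10:26107913-26107936. The last 4 stand for the ordinary copies, from retained-intron transcripts of Resf1 (chr6:149314339-149314362), Ube2d3 (chr3:135450428-135450451) and Ston1 (chr17:88637588-88637611), and from the unclassified transcript Gm48225 (chr12:78261342-78261365). All are given on the + strand, 5′ to 3′. Capitals mark the base that differs between the first pair and the AATAAA polyadenylation signal in the later ones.
L1_Mus1 in Rps24-ps3: tCgcaagacatggcctttatgagaaga
Rps24 transcript: tGgcaagacatggcctttatgagaaga
L1_Mus1 in Gm4739, first: aagataaacaaccgtatgagcaga
L1_Mus1 in Gm4739, second: ccaagaaatgctccgagagatgga
L1Md_T in Resf1: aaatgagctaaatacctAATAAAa
L1Md_F2 in Ube2d3: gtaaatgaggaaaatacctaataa
L1Md_F2 in Gm48225: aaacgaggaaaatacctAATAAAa
L1_Mur3 in Ston1: aatttgaaagccccccaagcatat

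The interval in Rps24-ps3 differed from the Rps24 transcript by G2C, counted from the interval's 5′ end with the Rps24 base first, and its 27 letters occurred in no other annotated gene. Both Gm4739 intervals were letter for letter the same as stretches of the Hmgb2 transcript, and occurred in the transcripts of 6 and 5 genes other than Gm4739. Counting the letters and their reverse complement together, the L1Md_T letters in Resf1 occurred in the transcripts of 64 other genes. The L1Md_F2 letters in Ube2d3 occurred in 39, those in Gm48225 in 7, and the L1_Mur3 letters in Ston1 in none. As printed, the letters from Resf1, Ube2d3 and Gm48225 were in 34, 22 and 3 genes, their own gene included. Their reverse complements were in 31, 18 and 5 genes. Of the 146 intervals with letters, 79 (54.1%) had the same letters or their reverse complement in the transcript of at least 1 other gene. The most widespread occurred in 126, counted in the same way. How reads that match several places were assigned is not given in the sources used here, so values of single intervals with shared letters are uncertain.

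Library depth was 10667979 gene reads in Untransduced replicate 4 and 24086491 to 39138205 in the other 29 libraries. Levels are counts per 1e+06 gene reads of the library, called CPM. That library, from the 7DIV set, stood apart on many measures. Its Malat1 level was 42159 CPM, against 1904 to 8253 in the other 29, its SINE level 16339 CPM against 1395 to 3044, and its rRNA share of the repeat table was the lowest at 24.5%. The comparisons between conditions are therefore also given without it. All 9 sensory neuron markers looked at were present, with group means from 54.9 to 1125 CPM in DN, 39.2 to 987 in GFP and 45.2 to 965 in Untransduced cultures. Markers of satellite glia and Schwann cells (19.3 to 259 in DN, 20.5 to 248 in GFP and 19.9 to 249 in Untransduced cultures) and of fibroblasts (2.63 to 3589 in DN, 2.16 to 3562 in GFP and 2.67 to 3596 in Untransduced cultures) were present as well, so the cultures held several cell types. Of the 3 macrophage markers, Cd68 and Csf1r were at 6.44 and 4.48 in DN, 8.01 and 5.73 in GFP and 7.23 and 5.69 in Untransduced cultures, while Aif1 was at 0.124 or less. Of the 2 endothelial markers, Pecam1 was at 3.41 in DN, 3.53 in GFP and 3.74 in Untransduced cultures, and Cldn5 at 0.120 or less. Some markers moved with the condition: in DN against GFP, 7 of 9 sensory neuron markers rose and 1 fell, 1 of 6 satellite glia and Schwann cell markers fell, 1 of 3 macrophage markers fell and 0 of 4 fibroblast markers passed, where 10.9% of all genes passed (edgeR, adjusted p under 0.05). Their part in the young L1 values was not tested. In such mixed cultures, fewer cells of a type and less RNA per cell cannot be told apart.

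Few young L1 intervals held any read. Of 10411, 8125 had no count in any of the 30 libraries, 1377 had 1 to 9 reads in all, 909 had at least 10 and 68 at least 100, which gave 64261 reads over all libraries. A count was found in 21.96% of young L1 intervals and in 40.5% of the 6726 other LINE intervals. L1_Mus1 held 36.1% of the young L1 reads (23191 in 834 intervals) and L1Md_F2, the name with the most intervals, 19.8% (12718 in 3346). L1_Mur2 held 6107 reads, L1_Mus3 4956, L1Md_F3 4846, L1Md_T 3924, L1_Mur3 2581, L1Md_A 2091, L1_Mus2 1978, L1_Mus4 1029 and L1_Mur1 615. L1Md_F, with 213 reads, and L1Md_Gf, with 12, were the rarest. The 3 names of active copies, L1Md_A, L1Md_T and L1Md_Gf, had counts in 15.8% of 1349, 16.2% of 1973 and 22.2% of 27 intervals. L1Md_F3 (20.4% of 948), L1Md_F2 (21.0% of 3346) and L1Md_F (26.5% of 68) were near these. The L1_Mus and L1_Mur names ran from 27.7% of 834 (L1_Mus1) to 37.7% of 273 (L1_Mur3). How reads that match several places were assigned is not known, so these shares do not compare transcription between names.

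The reads were concentrated in few places. The interval in Rps24-ps3 alone held 14400 reads, 22.4% of all young L1 reads and 62.1% of those of L1_Mus1. The 3 most counted intervals held 32.4%, the first 10 held 38.8% and the first 100 held 57.9%. Concentration differed between names: a single interval held 69.2% of the L1_Mur2 reads and 22.9% of the L1Md_F3 reads, but 2.81% of the L1Md_F2 reads, 8.97% of the L1Md_T reads and 10.1% of the L1Md_A reads. In the pooled reads L1_Mus1 and L1_Mur2 were thus mostly 1 interval, while L1Md_F2, L1Md_T and L1Md_A sum over many. This did not hold in every library. The top L1_Mus1 interval held 265 of 610 reads of that name in GFP replicate 4 and 199 of 405 in Untransduced replicate 5. In Untransduced replicate 4 it held 64 of 723, and the top L1_Mur2 interval was at 0.187 of 18.7 CPM. The top L1_Mus1 interval has the letters of the Rps24 transcript but for 1 base. The pooled L1_Mus1 level is therefore mostly that of a pseudogene stretch and not a measure of L1 RNA.

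Whether an interval was counted went with the gene around it. Of intervals lying only within genes of the + strand, 61.6% of 2002 had a count, with 50615 reads in all, against 13.0% of 2008 and 2072 reads within genes of the - strand. Between genes, 11.7% of 6259 intervals had a count, with 10058 reads. The difference was not particular to L1: over all intervals of the table that lay in exons of + strand genes only, 94.3% of 21339 had a count and the median was 270 reads, whereas in exons of - strand genes 40.8% of 21647 had a count and the median was 0. The sources used here do not give the strandedness or the counting settings, and the cause of the strand difference was not tested. By place, 163 intervals lay in exons and held 24590 reads, 3989 in introns held 29613, and 6259 in no gene held 10058.

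**Figure D1:**
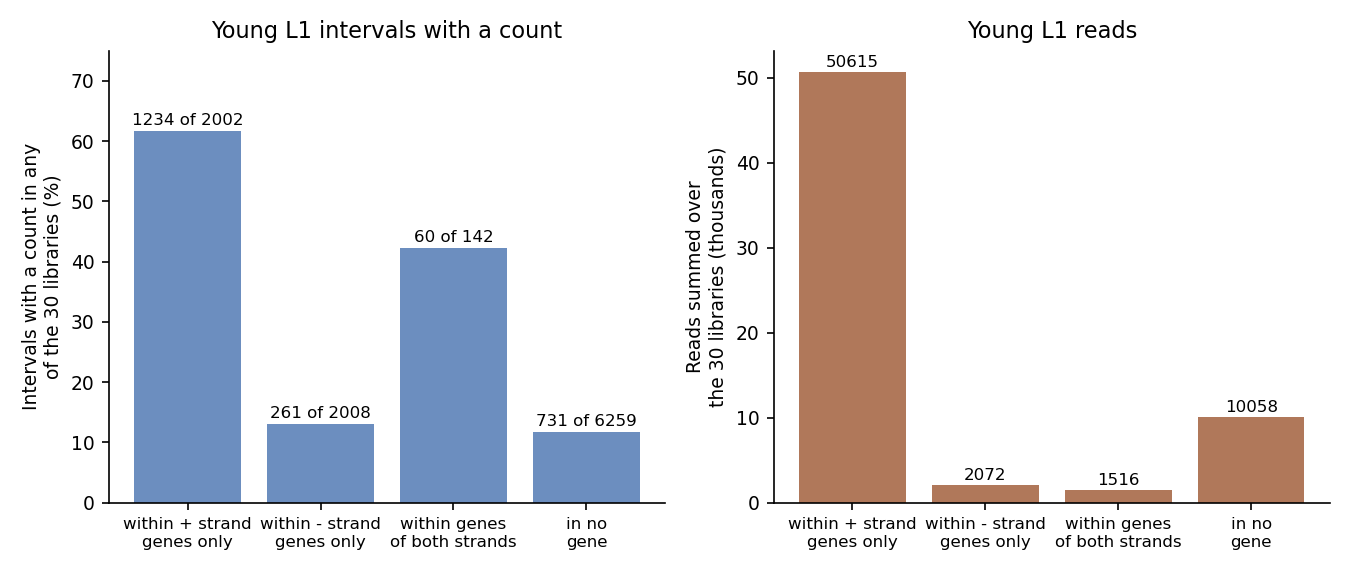
Young L1 intervals with a count in any library (left, percent of intervals) and their summed reads over the 30 libraries (right), by the strand of the annotated gene around them. Intervals within + strand genes were counted in 1234 of 2002 cases and those within - strand genes in 261 of 2008, and the + strand genes held 50615 of the 64261 reads.

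The most counted intervals lay in processed pseudogenes. The first, in Rps24-ps3 (chrX:79195047-79195448, + strand), sits in a copy of Rps24, a protein of the small ribosomal subunit. The second, L1_Mur2 at chr12:110315972-110315995 with 4227 reads, overlaps the start of Gm6988, a processed copy of Rps25, another small-subunit protein. The 2 intervals of Gm4739 printed above, with 2215 and 912 reads, were also among the 6 most counted. Gm4739 is a processed copy of Hmgb2, a chromatin protein that bends DNA. Rps24-ps3 shared 75.4% of its 25-letter words with Rps24, Gm4739 shared 91.8% with Hmgb2, and Gm6988 shared 58.7% with Rps25. The 3 pseudogenes held 6 intervals and 21871 reads, 34.0% of all young L1 reads. The other 2 of the 6 most counted intervals were L1Md_F3 at chr7:27779277-27779300, in no annotated gene, with 1112 reads, and L1_Mus1 at chr13:65301085-65301108, in an intron of the zinc finger gene Zfp369, with 809 reads. The chromosome 7 interval carries the suffix ERVK in its identifier, the name of a retroviral family, beside its L1Md_F3 label.

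The interval in Rps24-ps3 had overlapping levels in the 3 conditions. It had between 10.7 and 25.8 CPM in DN libraries, median 18.0, between 8.22 and 24.8 in GFP libraries, median 14.7, and between 6.00 and 24.3 in Untransduced libraries, median 12.8 (8.25 to 24.3, median 13.6, without replicate 4). The interval's reads equalled 76.8 ± 3.07% of the Rps24-ps3 reads of the gene table in DN, 78.4 ± 3.53% in GFP and 78.0 ± 3.23% in Untransduced libraries (SD, n = 10 each). The parent gene Rps24 averaged 61.5 ± 17.1 CPM in DN, 59.8 ± 18.5 in GFP and 52.4 ± 15.7 in Untransduced libraries (SD, n = 10 each), or 54.7 ± 14.8 in the 9 without replicate 4. In edgeR's quasi-likelihood test over all 18063 genes with Benjamini-Hochberg adjustment, Rps24-ps3 did not pass in DN against GFP (log2 fold change 0.16, SE 0.18, adjusted p = 0.672) or DN against Untransduced (0.33, SE 0.19, adjusted p = 0.270). Rps24 did not pass either (0.07, SE 0.16, adjusted p = 0.859, and 0.23, SE 0.16, adjusted p = 0.381). Without Untransduced replicate 4 the changes in DN against Untransduced were 0.22 for Rps24-ps3 (SE 0.19, adjusted p = 0.494) and 0.16 for Rps24 (SE 0.18, adjusted p = 0.614). Reads cannot be divided between Rps24 and its pseudogene from these tables, so both values are uncertain.

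**Figure D2:**
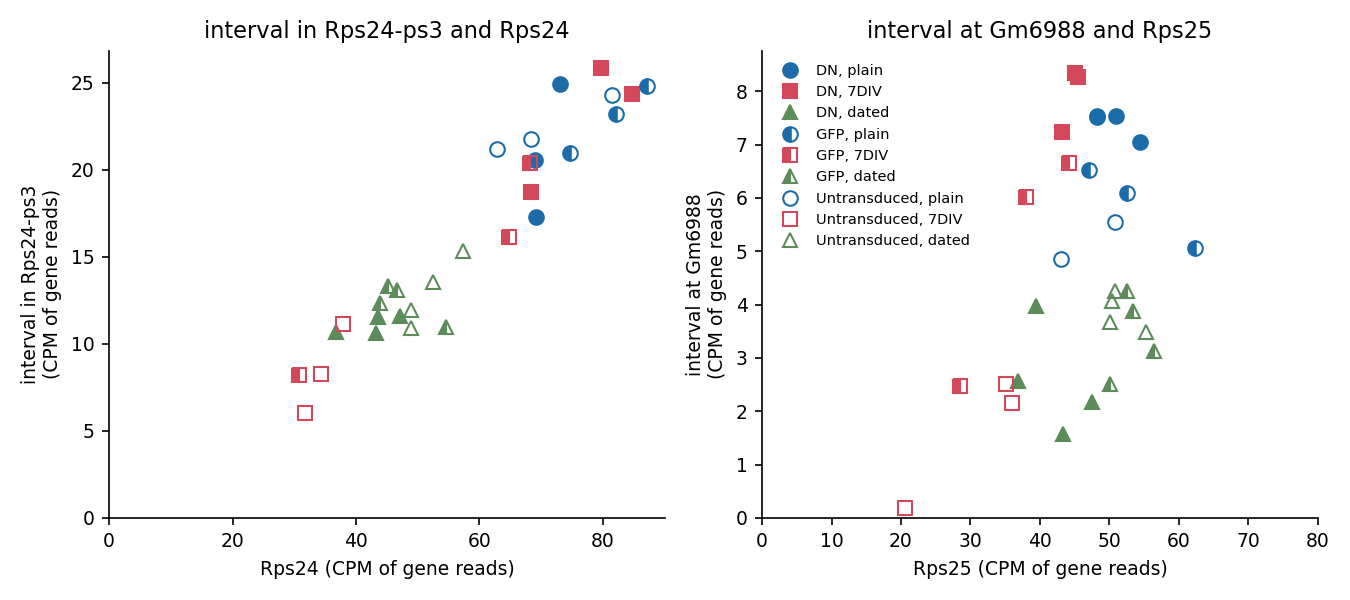
Level of the young L1 interval in Rps24-ps3 against the level of Rps24 (left) and of the interval at Gm6988 against the level of Rps25 (right), both axes in CPM, 1 point per library. Filled points are DN, partly filled points GFP and open points Untransduced libraries. The interval in Rps24-ps3 was between 6.00 and 25.8 and was lowest in Untransduced replicate 4, where Rps24 was at 31.8.

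The summed young L1 level overlapped between the 3 conditions, with 1 library far above the rest. It was between 43.2 and 113 CPM in DN libraries, median 66.9, between 45.6 and 104 in GFP libraries, median 77.6, and between 43.2 and 440 in Untransduced libraries, median 68.6. The value of 440 was that of Untransduced replicate 4, and the next Untransduced library was at 81.4. Without it the means were 69.1 ± 23.2 in DN, 72.5 ± 20.4 in GFP (SD, n = 10 each) and 63.0 ± 15.7 in Untransduced libraries (SD, n = 9). Within replicates, DN was lower than GFP in 7 of 10 cultures, with a mean log2 difference of -0.09 ± 0.27 (SD, n = 10). DN against Untransduced gave -0.18 ± 0.79 with all 10 cultures and 0.05 ± 0.32 without replicate 4. GFP against Untransduced gave -0.09 ± 0.78 and 0.15 ± 0.20 on the same 2 bases, so both differences to Untransduced changed sign with that culture. DN was higher than Untransduced in 4 of 10 cultures and GFP in 7 of 10. All 5 differences were smaller than their SD, which is the spread of single cultures and not the error of the mean. The summed level is a score over intervals chosen together and is given without a test.

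**Figure D3:**
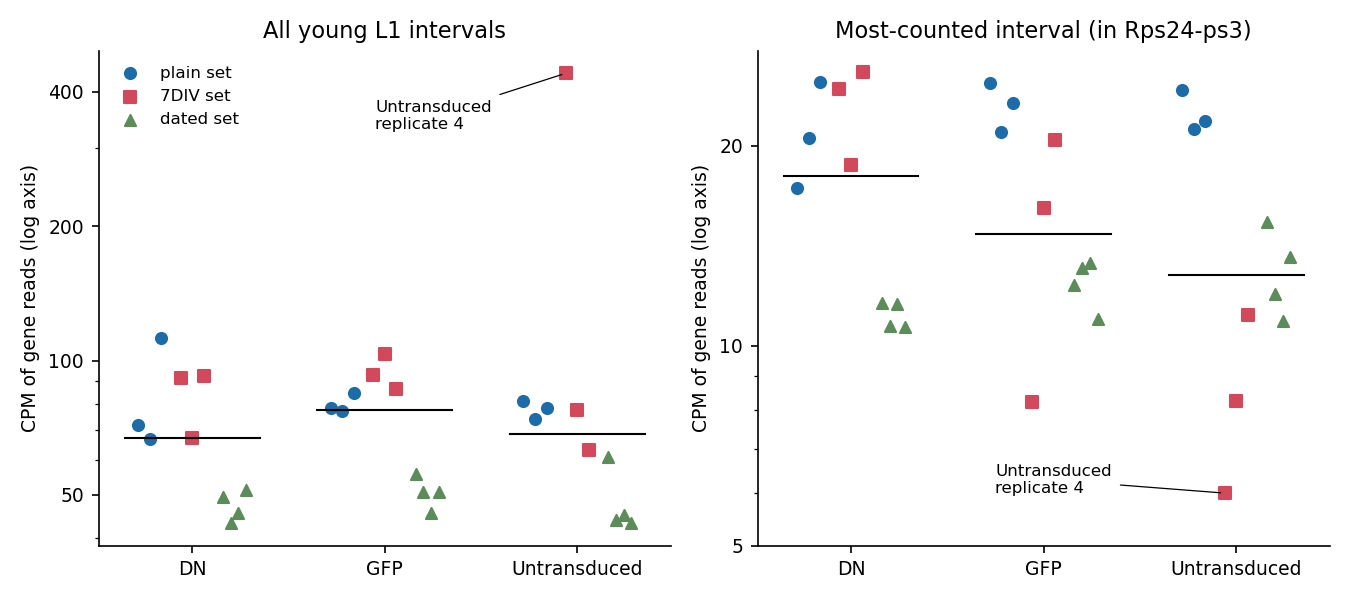
Summed level of the 10411 young L1 intervals (left) and level of the most counted interval, in Rps24-ps3 (right), in CPM on log axes, 1 point per library, with the culture set by colour and shape and the median of each condition as a line. Untransduced replicate 4 was at 440 in the sum and at 6.00 in the most counted interval, and the dated libraries were the lowest of the other 29 in the sum.

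The libraries of the dated set had the lowest summed levels. Leaving out Untransduced replicate 4, the summed level was between 66.6 and 113 in the 9 plain libraries, median 78.1, between 63.0 and 104 in the 8 libraries of the 7DIV set, median 88.7, and between 43.2 and 60.9 in the 12 dated libraries, median 47.5. No dated library reached the lowest plain or 7DIV library. Within the dated set the 3 conditions had 47.3 ± 3.63 (DN), 50.7 ± 4.14 (GFP) and 48.3 ± 8.43 (Untransduced; SD, n = 4 each). Within the plain set they had 83.6 ± 25.2 (DN), 79.9 ± 4.00 (GFP) and 77.9 ± 3.61 (Untransduced; SD, n = 3 each). Within the 7DIV set DN libraries had 83.5 ± 14.1 and GFP libraries 94.3 ± 8.81 (SD, n = 3 each), and the 2 Untransduced libraries other than replicate 4 had 63.0 and 77.5. What distinguished the sets beyond their titles is not given in the sources used here, and library preparation and culture cannot be told apart as sources of the difference.

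No young L1 name passed the test in any contrast between conditions. Counts were summed per name and fitted with edgeR's quasi-likelihood test over the 310 repeat names that passed the filter on low counts, on the totals of the gene table and with the replicate number as a block. Of the 13 young L1 names, 11 passed that filter, and L1Md_F and L1Md_Gf did not. In DN against GFP, 0 of 11 passed an adjusted p of 0.05 where 0.968% of all names did, and 0 had an unadjusted p under 0.05. In DN against Untransduced it was 0 of 11 against 1.29% of all names, and in GFP against Untransduced 0 of 11 against 0%, again with 0 unadjusted p-values under 0.05 in both. DESeq2 called 0 of them in each contrast. In DN against GFP, 9 of 11 names had a negative log2 fold change, with a median of -0.09, beside 70.3% of all 310 names and a median of -0.11 over them. The smallest adjusted p there was 0.995.

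Leaving out Untransduced replicate 4 narrowed the errors but gave no call. The SE of L1Md_F2 in DN against GFP was 0.13 without that library and 0.26 with it. DN against GFP then had 1 of 11 names with an unadjusted p under 0.05, beside 35 of all 310 names, and 0 with an adjusted p under 0.05, where 2.58% of all names passed. That name was L1Md_A, with a log2 fold change of -0.44 (SE 0.18, unadjusted p = 0.0202, adjusted p = 0.309 in edgeR's quasi-likelihood test). In the same fit it had -0.05 in DN against Untransduced (SE 0.19, adjusted p = 0.992) and 0.39 in GFP against Untransduced (SE 0.19, unadjusted p = 0.0460, adjusted p = 0.901). L1Md_A had between 0.682 and 3.61 CPM in DN libraries, median 1.77, and between 1.32 and 4.40 in GFP libraries, median 2.27. DN was the lower in 7 of 10 cultures, and the ranges overlapped. In Untransduced libraries L1Md_A was between 0.743 and 2.69 without replicate 4, median 1.66, and at 26.7 in replicate 4. In DN against Untransduced the count of negative log2 fold changes was 9 of 11 with replicate 4 and 3 of 11 without it, beside 82.6% and 52.3% of all 310 names. In GFP against Untransduced it was 8 of 11 with replicate 4 and 1 of 11 without it, beside 79.0% and 29.4% of all names, so the signs of all names moved the same way as those of young L1. The adjusted p-values without it were 0.833 or more and 0.901 or more in these 2 contrasts, where 1.61% and 0% of all names passed.

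**Figure D4:**
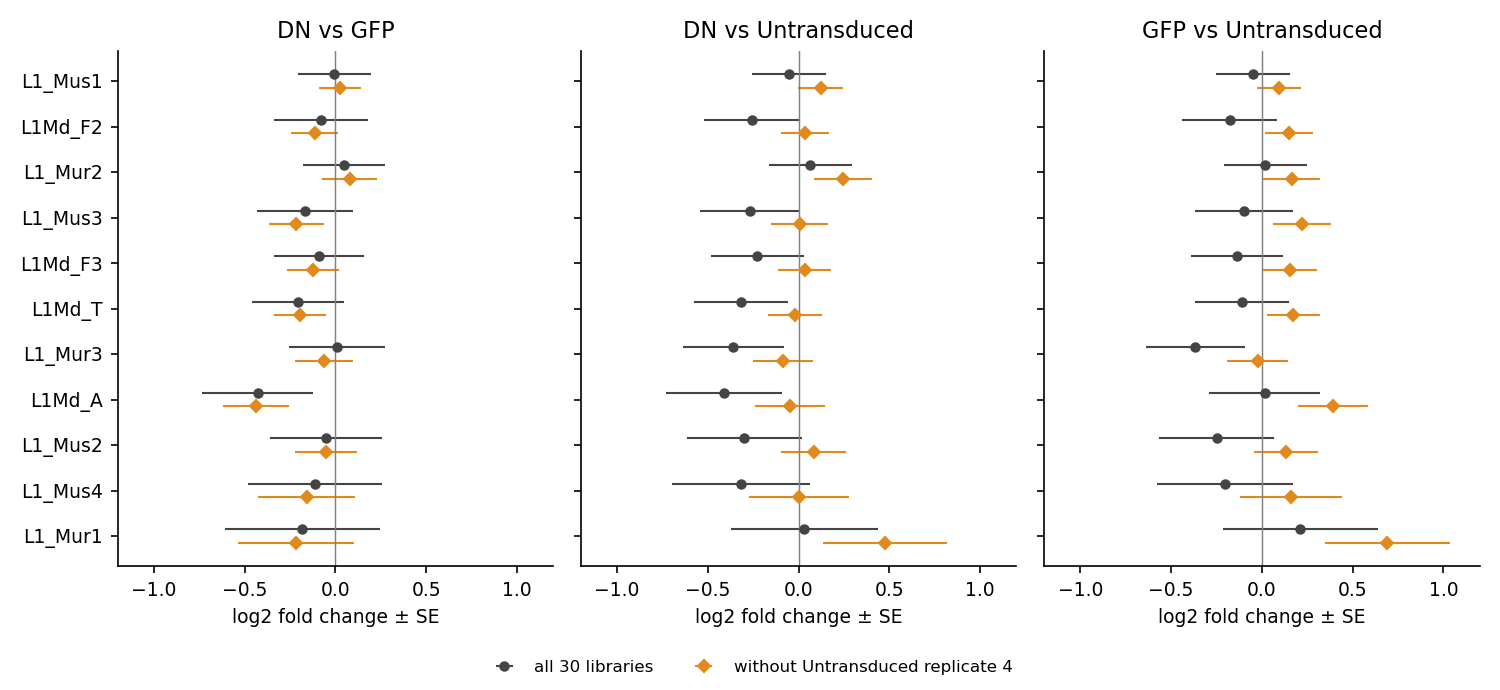
log2 fold change of each of the 11 young L1 names that passed the filter, with its standard error, in DN against GFP, DN against Untransduced and GFP against Untransduced, with all 30 libraries (circles) and without Untransduced replicate 4 (diamonds). The errors were narrower and the 2 contrasts with Untransduced moved upward without that library, and 0 of 11 names passed an adjusted p of 0.05 in any of the 3 contrasts with either choice of libraries.

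L1_Mus1 was the most counted name in each condition and L1Md_F2 the next. L1_Mus1 averaged 26.8 ± 8.25 CPM in DN, 26.1 ± 6.80 in GFP (SD, n = 10 each) and 24.3 ± 7.24 in Untransduced libraries without replicate 4 (SD, n = 9). L1Md_F2 came next with 12.8 ± 4.97 in DN, 14.3 ± 6.25 in GFP and 12.0 ± 4.24 in Untransduced libraries on the same numbers of libraries. L1_Mur2 averaged 7.58 ± 3.33 in DN, 6.85 ± 2.06 in GFP and 5.95 ± 2.04 in Untransduced libraries. L1_Mus3, L1Md_F3 and L1Md_T lay between 3.76 and 5.83 in all 3 conditions, and differences between these names within libraries were not tested. L1Md_T, an active-copy name, averaged 3.89 ± 1.71 in DN, 4.43 ± 1.72 in GFP and 3.76 ± 1.83 in Untransduced libraries. L1_Mur3, L1_Mus2 and L1Md_A followed, between 1.77 and 2.80, and L1_Mus4 and L1_Mur1 were at 1.149 or less. L1Md_F averaged 0.293 in DN, 0.260 in GFP and 0.157 in Untransduced libraries, near the level of 3 reads, which was between 0.0767 and 0.281 CPM. L1Md_Gf was counted in 10 of 30 libraries with 12 reads in all, and a difference between conditions was not detectable at this depth. These are levels summed over different numbers of intervals, not levels per copy.

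Untransduced replicate 4 was above all other 29 libraries for 12 of the 13 names, the exception being L1Md_F with 0.187. For L1Md_Gf this rests on 1 read in that library. L1Md_F2 was at 127 CPM there, against 6.62 to 25.2 in the other 29 libraries. L1_Mus1 was at 67.8 against 16.8 to 39.0, and L1_Mur1 at 10.0 against 0.0614 to 2.12. Relative to the median of the other 9 Untransduced libraries, L1_Mur1 was 30.2 times as high, L1Md_A 16.1 times, L1Md_F2 10.97 times and L1_Mus1 3.39 times. The most counted interval went the other way: it was at 6.00 there, against 8.22 to 25.8 in the other 29, and held 1.36% of that library's young L1 reads, against 8.84% to 31.8% elsewhere. The interval at Gm6988 was at 0.187 against 1.57 to 8.35. Most of the excess lay in introns of + strand genes, with 354 CPM against 13.0 to 57.0 in the other 29. Intervals between genes, with 42.7 against 7.13 to 16.7, and within - strand genes, with 9.19 against 1.21 to 4.03, were also above all others, while the exon intervals of + strand genes, at 33.8, were inside the range of 16.8 to 41.4 of the others. The number of intervals with a count, 451, was also inside the range of 217 to 672. That number is not scaled to depth, and this library had the fewest gene reads. Other LINE reads (964 against 112 to 218) and LTR reads (1444 against 189 to 382) were higher in the same library, so the excess was not confined to young L1. The cause was not tested.

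**Figure D5:**
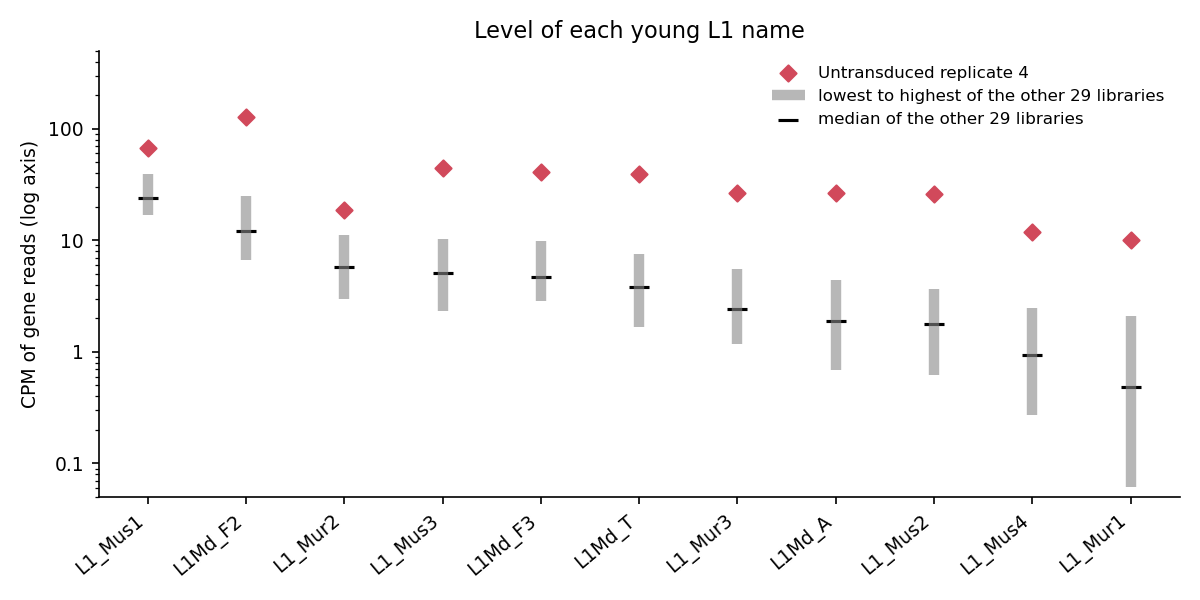
Level of 11 young L1 names in CPM (log axis), with Untransduced replicate 4 as a diamond and the other 29 libraries as a bar from the lowest to the highest with their median as a dash. Untransduced replicate 4 was above the bar for each of the 11 names, the highest being L1Md_F2 at 127 and the lowest L1_Mur1 at 10.0.

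The share of young L1 reads in the most counted interval differed between conditions by less than its spread between cultures. It was between 20.8% and 30.8% in DN libraries, median 25.1%, between 8.84% and 31.8% in GFP libraries, median 24.7%, and between 1.36% and 31.4% in Untransduced libraries, median 26.2%. The mean within-replicate difference was 2.08 ± 7.93 percentage points for DN minus GFP (SD, n = 10; higher in 5 of 10 cultures; exact two-sided sign-flip permutation test, p = 0.451, adjusted p over the 3 contrasts 0.574). DN minus Untransduced was 3.02 ± 11.3 points (higher in 5 of 10, exact permutation p = 0.432, adjusted 0.574) and GFP minus Untransduced 0.941 ± 5.21 points (higher in 5 of 10, exact permutation p = 0.574, adjusted 0.574). With replicate 4 of all 3 conditions left out, these differences were 0.322, 0.536 and 0.215 points. That step also removed GFP replicate 4, which had the lowest GFP share, 8.84%.

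Of single young L1 intervals, 13 of 10411 had enough reads for a test, and they held 39.98% of the young L1 reads. Most of these 25690 reads lay in pseudogene intervals, with 14400 in Rps24-ps3, 4227 at Gm6988 and 2215 and 912 in Gm4739. The test thus covered few reads outside those pseudogenes. In edgeR's quasi-likelihood test over all 12991 intervals that passed the filter, 0 of the 13 passed an adjusted p of 0.05 in DN against GFP, where 2.01% of all intervals did. It was 0 of 13 in DN against Untransduced against 2.46%, and 0 of 13 in GFP against Untransduced against 0%. None of the 13 had an unadjusted p under 0.05 in any of the 3 contrasts, and DESeq2 called 0. Without Untransduced replicate 4, 14 young L1 intervals were tested and 0 passed in each contrast, where 3.5%, 2.77% and 0% of all intervals did. The interval in Rps24-ps3 had a log2 fold change of 0.14 in DN against GFP (SE 0.18, adjusted p = 0.906) and the interval at Gm6988 one of 0.24 (SE 0.32, adjusted p = 0.909). The Gm6988 interval was between 1.57 and 8.35 CPM in DN libraries, median 7.15, between 2.48 and 6.65 in GFP libraries, median 4.66, and between 0.187 and 7.53 in Untransduced libraries, median 3.87 (2.16 to 7.53, median 4.06, without replicate 4). The first Gm4739 interval, with the letters aagataaacaaccgtatgagcaga, had 2.54 ± 0.558 in DN, 2.61 ± 1.11 in GFP and 2.26 ± 0.912 in Untransduced libraries (SD, n = 10 each), or 2.43 ± 0.761 in the 9 without replicate 4. The intronic interval in Zfp369 had 0.792 ± 0.237 in DN, 0.926 ± 0.306 in GFP and 1.148 ± 0.794 in Untransduced libraries, or 0.910 ± 0.277 in the 9 without replicate 4. Its host gene had a log2 fold change of -0.05 in DN against GFP (SE 0.08, adjusted p = 0.799).

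Whether the DN against GFP difference itself differed between culture sets was tested by the interaction of set and condition. It passed for 0 of 11 young L1 names and for 0% of all names, with a smallest adjusted p of 0.967 in edgeR's quasi-likelihood test, and for 0 of 11 without Untransduced replicate 4, with a smallest of 0.189. Fits within a single set made some calls in the 7DIV set once Untransduced replicate 4 was left out, which leaves 2 Untransduced libraries there. In DN against Untransduced of that fit, L1_Mur2 had a log2 fold change of 1.29 (SE 0.28, adjusted p = 0.000485) and L1_Mus1 one of 0.96 (SE 0.26, adjusted p = 0.0141), where 4.46% of all names passed. L1_Mur2 was at 9.13, 10.7 and 11.2 CPM in the DN libraries of the set, against 4.05 and 5.06 in the Untransduced ones. GFP replicates 4 to 6 were at 5.49, 9.03 and 8.93. Neither name passed in DN against GFP of that fit, L1_Mur2 with 0.43 (adjusted p = 0.208) and L1_Mus1 with 0.35 (adjusted p = 0.290). The most counted interval of each of these names also passed in DN against Untransduced, where 1.94% of all intervals did. The log2 fold change was 1.97 at Gm6988 (adjusted p = 2.3e-05) and 1.42 in Rps24-ps3 (adjusted p = 0.000784). Rps24 was at 84.7, 68.4 and 79.8 in the same DN libraries, against 34.4 and 37.9 in Untransduced replicates 5 and 6. In GFP replicates 4 to 6 Rps24 was at 30.8, 64.8 and 68.3. In DN against GFP of that fit, L1_Mus3 had -0.83 (SE 0.23, adjusted p = 0.0109), where 9.41% of all names passed. In GFP against Untransduced of that fit 0 names passed, where 0.495% of all did, and the interval at Gm6988 passed with 1.23 (adjusted p = 0.0429), where 0.116% of all intervals did. With Untransduced replicate 4 kept, 0 young L1 names passed in the 7DIV set, where 0% of all names did in each contrast. In the plain set 0 young L1 names passed in any contrast, where 0.977% of all names did in DN against GFP, 1.95% in DN against Untransduced and 0% in GFP against Untransduced. In the dated set 0 passed, where 3.12% of all names did in DN against GFP, 2.78% in DN against Untransduced and 0% in GFP against Untransduced. A single interval passed in the plain set, L1Md_T at chr10:29201899-29201922 in an intron of Gm49353, in DN against Untransduced (adjusted p = 0.0366), where 3.02% of all intervals passed. In that set it held 17, 6 and 30 reads in DN libraries (0.663, 0.208 and 1.25 CPM). GFP libraries held 13, 10 and 5 reads (0.418, 0.328 and 0.189 CPM), which overlapped DN. Untransduced libraries held 2, 2 and 0 reads (0.0810, 0.0818 and 0 CPM). The interval did not pass in DN against GFP of that set (edgeR, adjusted p = 0.666). The Untransduced libraries were below the limit of 3 reads and the interval met the filter through the other libraries, so no fold is given. Over all cultures that interval was between 0.0294 and 1.25 CPM in DN libraries, median 0.419, and between 0 and 0.456 in Untransduced libraries, median 0.138.

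Genes that restrain or modify retrotransposons were taken from a list of 46 names, of which 44 were found in the gene table and 42 passed the filter. In DN against GFP, 1 rose and 0 fell, where 10.9% of all genes passed (6.57% higher and 4.35% lower), and the list's median log2 fold change was -0.02, as over all genes. The one that rose was Zc3hav1, an antiviral protein that binds viral and L1 RNA and promotes its decay. It had 101 ± 7.52 CPM in DN libraries, against 90.1 ± 6.78 in GFP and 84.7 ± 7.94 in Untransduced libraries (SD, n = 10 each). Its log2 fold change was 0.16 in DN against GFP (SE 0.05, adjusted p = 0.0307) and 0.25 in DN against Untransduced (SE 0.05, adjusted p = 0.000797). In DN against Untransduced, Hnrnpl, an RNA-binding splicing regulator, fell by 0.14 on the log2 scale (SE 0.04, adjusted p = 0.0357), with 190 ± 29.3 in DN against 210 ± 32.9 in Untransduced libraries, and 13.1% of all genes passed (6.78% higher and 6.31% lower). In GFP against Untransduced 0 of 42 passed, where 0% of all genes did. In the fit that left out Untransduced replicate 4, 4 of 42 genes passed in DN against GFP, where 17.8% of all genes did. It was 4 of 42 in DN against Untransduced, where 16.1% did, and 0 of 42 in GFP against Untransduced, where 0% did. In DN against GFP of that fit, Zc3hav1 rose, and 3 genes fell that had not passed with all 30 libraries. These were the transcription factor Sp1 (log2 fold change -0.16, SE 0.04, adjusted p = 0.00518), Uhrf1, which brings the maintenance methyltransferase to replicated DNA (-0.15, SE 0.04, adjusted p = 0.0140), and that methyltransferase, Dnmt1 (-0.15, SE 0.04, adjusted p = 0.0200). Sp1 had 91.5 ± 10.5 in DN against 101.5 ± 4.82 in GFP libraries, Uhrf1 119.5 ± 14.8 against 133 ± 19.7, and Dnmt1 106 ± 11.02 against 117 ± 13.3 (SD, n = 10 each). With all 30 libraries their adjusted p-values were 0.116 (Sp1), 0.124 (Uhrf1) and 0.0652 (Dnmt1). In DN against Untransduced of that fit, Zc3hav1 and Piwil2, a PIWI protein of the germline piRNA pathway, rose, and Hnrnpl and Uhrf1 fell. Piwil2 had 2.04 ± 0.757 in DN libraries (SD, n = 10) against 1.29 ± 0.520 in the other 9 Untransduced libraries (SD) and 11.7 in replicate 4, with a log2 fold change of 0.64 in that fit (SE 0.20, adjusted p = 0.0304) and 0.29 with all 30 libraries (SE 0.31, adjusted p = 0.575).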

How the data were processed

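RNA was sequenced from 30 libraries (10 DN, 10 GFP and 10 Untransduced). The deposited tables hold raw read counts per gene and per short genomic interval, with no normalization by the authors found in them: all values were whole numbers. Per the submitters' processing notes, bcl2fastq 2.17, STAR and HTSeq were used with the GRCm38 (mm10) build. Per the labels' protocols, RNA came from the RNeasy Micro kit and libraries from a TruSeq kit. The sources used here give neither the annotation release nor the strand setting, the handling of reads that match several places or the choice of the intervals. Genes and exons were taken from the GENCODE M21 annotation, which gave symbols for 48349 of 48795 gene identifiers. Coordinates are the start and end columns of the deposited table.

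Levels are CPM, counts per 1e+06 reads of the gene table. Counts were summed per repeat name, and names, intervals and genes were each fitted over the whole table with robust quasi-likelihood models in edgeR 4.0.16 (R 4.3.3). Library sizes were the gene-table totals with no further factors, and features were kept by filterByExpr by condition with its minimum count of 10. Contrasts were two-sided with Benjamini-Hochberg adjustment over all features tested and 0.05 as threshold, and DESeq2 1.42.0 was an alternative. The SE of a log2 fold change is the change divided by the square root of F. Sequence comparisons used the GENCODE M21 transcripts.

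The replicate number entered as a block, because the series design states that each mouse's culture was divided between the conditions. In the counts, 8 of 30 same-number pairs correlated above 0.1 across genes after condition and set were taken off, with a median r of 0.06 against -0.04 for other numbers. On simulated data with a log2 fold of 1 in DN against GFP, the test recovered 98.7% of the changed names (310 names), 96% of the changed intervals (12991) and 99% of the changed genes (18063). The simulated spread was set in advance, equal for all features and without an outlying library. Its median error for names was 0.11, whereas SEs of young L1 names in DN against GFP reached 0.43 (L1_Mur1). These shares therefore do not give the power for young L1 names or intervals.

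Intervals named are the 6 with the highest mean level over all libraries and any past the threshold with 1 direction in all 3 sets, of which there were none; all names, host genes and control genes past the threshold, with or without Untransduced replicate 4, were named. Other intervals and genes named beside these, and the sequences printed, were picked with their values known. The members, lists and tests were chosen with earlier results of these data known. In the list of control genes, Hells and Lsh are names of the same gene and Tasor was not found under that name. A count of 3 reads was taken as the limit of detection, which covers counting error only.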

Additional observations from a re-analysis of the deposited data

Results flagged for a closer look

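In groups of 10 libraries, a value was marked where its gap to the nearest other library took up more than the 95% critical share of the group's range. Of 72 groups looked at, 24 were marked, where chance marks about 1 in 20 of independent, even groups. These groups share the same libraries and pool the culture sets, so that rate does not hold here and the count is descriptive. Levels are in CPM of gene reads, and the causes were not tested.

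Untransduced replicate 4 accounted for most of them, always as the highest library of its condition. Its summed young L1 level was 440.2, with the next Untransduced library at 81.4, and 434.2 without the most counted interval, with the next at 69.2. By name it was at 26.7 for L1Md_A (next 2.69), 127.5 for L1Md_F2 (next 20.9), 40.7 for L1Md_F3 (next 8.38), 39.6 for L1Md_T (next 7.55) and 0.0937 for L1Md_Gf (next 0.0409). It was at 10.03 for L1_Mur1 (next 0.817), 18.7 for L1_Mur2 (next 9.72) and 26.8 for L1_Mur3 (next 4.64). It was at 67.8 for L1_Mus1 (next 35.8), 26.1 for L1_Mus2 (next 3.07), 44.2 for L1_Mus3 (next 6.47) and 11.9 for L1_Mus4 (next 1.53). The L1Md_F3 interval on chromosome 7 was at 6.00 there (next 2.03) and the L1_Mus1 interval in Zfp369 at 3.28 (next 1.36).

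DN replicate 3, of the plain set, was the highest DN library for 5 names. It was at 24.2 for L1Md_F2 (next 16.3), 2.12 for L1_Mur1 (next 0.975), 10.3 for L1_Mus3 (next 6.47), 2.45 for L1_Mus4 (next 1.32) and 0.083 for L1Md_Gf (next 0.0307). GFP replicate 4, of the 7DIV set, was the highest GFP library for L1Md_F3 at 9.77 (next 6.99), for L1Md_Gf at 0.062 (next 0.0321) and for the interval in Zfp369 at 1.71 (next 1.18). The L1Md_Gf values rest on 1 or 2 reads per library.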

How the results depend on the processing

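With TMM or median-ratio factors of the gene table, repeat-table totals, no filter, DESeq2, LINE names alone, names without their top interval or without exonic intervals, and without each replicate in turn (0 to 0 calls in each contrast), 0 young L1 names passed in all 3 contrasts, and 0 intervals passed under those of these settings that apply to intervals. Without the replicate block the counts were also 0 for names and intervals. The main fit had no call to lose, so this shows only that leaving out the block added none. Calls appeared within single sets. Within the plain set, 1 interval passed in DN against Untransduced, L1Md_T in an intron of Gm49353, with its Untransduced libraries under the limit of 3 reads. Within the 7DIV set without Untransduced replicate 4, a setting chosen after seeing the data, 1 name passed in DN against GFP and 2 in DN against Untransduced, and 2 intervals passed in DN against Untransduced and 1, at Gm6988, in GFP against Untransduced (1.23, adjusted p = 0.0429, where 0.116% of all intervals passed). L1_Mus1 in DN against Untransduced reversed there, with 0.96 against -0.05 in all libraries. It was at 0.12 over all sets without replicate 4 and at 0.10 in the 7DIV set with it, so either choice alone already gave a positive sign. Of 1287 values under alternatives of the 11 names and the 6 most counted intervals, 1281 stayed on their side of the threshold with no called reversal, and the other 6 are those of the 7DIV set just given. No main value was past the threshold, so staying on its side means only that no call appeared. Leaving out each replicate, the summed level ranged from -0.14 to -0.03 on the log2 scale for DN against GFP, from -0.26 to 0.05 for DN against Untransduced and from -0.15 to 0.15 for GFP against Untransduced, with both positive ends without replicate 4. The share in the top interval ranged from 0.322 to 3.16 percentage points for DN minus GFP, 0.536 to 4.53 for DN minus Untransduced and 0.215 to 2.13 for GFP minus Untransduced. Depth limits single intervals, since 10398 of 10411 were not tested.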

Other observations

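The AP-1 site TGACTCA, which A-Fos keeps AP-1 from, and its reverse complement TGAGTCA were in 0 of the 146 young L1 intervals with letters, and in 102 of 43838 intervals of the whole table with letters (0.233%, either strand). The polyadenylation signal AATAAA was in 36 of the 146 (24.7%) on either strand, against 13145 of 43838 (29.99%), and its common variant ATTAAA in 8 (5.48%), against 5566 (12.7%). On the + strand alone AATAAA was in 15.1% of the young L1 intervals and 13.3% of all intervals with letters. These counts describe only the letters inside short exonic windows.

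Of the 10411 young L1 intervals, 39 carried an identifier suffix other than L1, 17 of them ERVK, and these 39 included the fourth most counted interval. Another 1205 intervals had L1 in their identifier but a label that was no repeat name, and were not members. By chromosome, X held 889 intervals and 15954 reads, 14400 of them in the interval in Rps24-ps3, while Y held 141 intervals, 2 of them with a count. Only 4 young L1 intervals lay within the window around the annotated start of a gene in the RefSeq promoter table.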
